A study of Homo sapiens with 12 samples.

Results

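RARA, IGFBP4, TNS4, TOP2A, CDC6, WIPF2, GJD3, CCR7 and SMARCE1 are 9 protein-coding genes that lie close together in band 17q21 on the long arm of human chromosome 17. They were taken from the table of PRO-seq gene counts by symbol and position, as genes of the interval around RARA, TOP2A and IGFBP4, and are 9 of the 59410 genes of the table and 9 of the 23375 that had enough counts to be tested. Besides their place they were chosen by their fold changes with estradiol, starvation and the antagonists in earlier results of these libraries, so their values in those comparisons are given as a description and support nothing further. PRO-seq labels the RNA that engaged RNA polymerase is making at the moment of harvest, so its reads follow ongoing transcription and not the amount of stable mRNA. The cells were T47D, an established line of luminal, estrogen receptor-positive breast cancer cells. In 2 of the 6 groups the cells had been starved of hormone for 3 days and then received, for 1 h, either 1 nM beta estradiol or DMSO vehicle at 0.1% by volume. In the other 4 groups the cells had grown for 3 days in complete medium and received, for 1 h, 100 nM fulvestrant, 100 nM raloxifene, 100 nM tamoxifen or the same DMSO vehicle. Each group had 2 libraries, named here 3 and 4 as in the labels' descriptions, whereas the titles number them 1 and 2. The starvation rests on the descriptions and on the series' design text; the treatment protocol, the same for all samples, names complete medium only and no estradiol. Nothing in the labels says that they came from separate cultures, so each test measures the spread of 2 libraries that may be technical repeats. All groups are 1 cell line, and the sources used here do not give the composition of the starvation medium.

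Estrogen receptor alpha is a transcription factor that binds DNA at estrogen response elements and is switched on by estradiol. Fulvestrant is a steroidal antagonist that also leads to breakdown of the receptor, whereas raloxifene, a benzothiophene, and tamoxifen, a triphenylethylene, are selective modulators that occupy the receptor and act as antagonists in breast cells. RARA and IGFBP4 are long known as estrogen-induced genes of breast cancer lines, and their region lies next to the ERBB2 gene, with which RARA and TOP2A are often co-amplified in breast tumours. The 9 genes have unrelated jobs. RARA encodes retinoic acid receptor alpha, a ligand-dependent transcription factor. IGFBP4 is a secreted protein that binds insulin-like growth factors and limits their access to the receptor. TNS4 encodes a short tensin of focal adhesions that lacks the actin-binding part of its relatives. CDC6 loads the MCM helicase at replication origins, and TOP2A is the topoisomerase II of dividing cells, which untangles sister DNA. WIPF2 binds WASP-family proteins that start actin branching, SMARCE1 is the BAF57 subunit of the BAF chromatin remodelling complex, GJD3 is a gap junction connexin, and CCR7 is the chemokine receptor that guides lymphocytes to lymph nodes.

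The libraries held 3682311 counts in genes (raloxifene library 4) to 7856803 counts (raloxifene library 3), so the group with the shallowest library also had the deepest one. The summed level of 8 luminal epithelial markers, among them ESR1, GATA3 and KRT8, was 3290 to 4330 CPM (counts scaled to a common library size, with TMM, a factor per library that corrects for composition), and all 8 were tested. The summed level of 9 blood cell markers was 4.13 to 7.45 CPM with 2 of the 9 passing the filter on low counts, and that of 6 stromal and endothelial markers was 22.0 to 30.9 CPM with 3 of the 6 passing. Of the stromal and endothelial markers COL1A1 was at 16.0 to 23.9 CPM, and each of the others was at 5.95 CPM or less. No marker was at 0 in all libraries.

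In chromosome order (hg38, 1-based) the genes were WIPF2 at chr17:40219304-40284136, CDC6 at chr17:40287879-40304657, RARA at chr17:40309180-40357643, GJD3 at chr17:40360652-40364737, TOP2A at chr17:40388525-40417896, IGFBP4 at chr17:40443450-40457725, TNS4 at chr17:40475834-40501623, CCR7 at chr17:40553769-40565472 and SMARCE1 at chr17:40624962-40647818. The gaps between neighbours on this list were 3.01 to 4.52 kb from WIPF2 to GJD3 and 18.1 to 59.5 kb from GJD3 to SMARCE1. RefSeq places TOP2A and SMARCE1 on the minus strand and WIPF2, CDC6, RARA and IGFBP4 on the plus strand.

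Promoter windows of 300 bases, 250 before to 50 after a RefSeq start, were found for 6 of the 9 genes (8 windows, RefSeq GRCh38.p14); TNS4, GJD3 and CCR7 had none in that table. The windows of IGFBP4 and RARA are shown because these genes had the largest rise with estradiol. In them the half-site of an estrogen response element (GGTCA, or TGACC on the other strand) is in capitals. The IGFBP4 window was chr17:40443200-40443499 on the plus strand. The 3 windows of RARA, all on the plus strand, were chr17:40308930-40309229, chr17:40317995-40318294 and chr17:40341916-40342215.
IGFBP4: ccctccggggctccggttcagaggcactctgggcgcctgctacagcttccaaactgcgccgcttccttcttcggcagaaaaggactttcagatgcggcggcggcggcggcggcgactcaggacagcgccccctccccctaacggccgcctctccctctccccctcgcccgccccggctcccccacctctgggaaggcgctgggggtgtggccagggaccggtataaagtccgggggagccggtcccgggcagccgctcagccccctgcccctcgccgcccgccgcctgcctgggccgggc
RARA start 1: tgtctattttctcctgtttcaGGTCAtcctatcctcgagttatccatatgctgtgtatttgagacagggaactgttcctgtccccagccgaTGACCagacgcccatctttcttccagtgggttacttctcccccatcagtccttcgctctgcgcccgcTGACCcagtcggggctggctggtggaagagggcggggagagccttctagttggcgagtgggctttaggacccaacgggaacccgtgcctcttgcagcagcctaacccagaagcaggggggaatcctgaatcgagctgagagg
RARA start 2: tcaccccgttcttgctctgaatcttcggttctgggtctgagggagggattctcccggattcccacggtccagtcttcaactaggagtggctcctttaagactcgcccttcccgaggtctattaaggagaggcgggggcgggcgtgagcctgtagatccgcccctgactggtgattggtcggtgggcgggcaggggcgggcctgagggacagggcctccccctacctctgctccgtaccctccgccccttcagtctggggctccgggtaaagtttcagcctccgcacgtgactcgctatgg
RARA start 3: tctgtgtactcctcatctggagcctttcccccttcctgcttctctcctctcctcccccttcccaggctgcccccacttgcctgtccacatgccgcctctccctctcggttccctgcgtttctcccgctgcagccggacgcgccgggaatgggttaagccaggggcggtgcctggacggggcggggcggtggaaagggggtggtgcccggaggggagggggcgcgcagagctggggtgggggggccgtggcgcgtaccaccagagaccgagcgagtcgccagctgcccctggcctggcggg

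The RARA window of start 1 held 3 half-sites, at -229, -159 and -92 from the start, and the other 2 RARA windows and the IGFBP4 window held none. The window of WIPF2, a gene that did not pass with estradiol, held 1 at -132. Those of CDC6, TOP2A and SMARCE1 held none. A half-site was present in 37.4% of 35116 promoter windows of the genome. A full element (2 half-sites facing each other, 3 bases apart) was in none of the 8 windows, against 0.057% of all windows. The IGFBP4 window held 2 GC boxes (GGGCGG on either strand, in 45.0% of all windows), and the RARA windows held 1, 5 and 3. The windows of WIPF2, TOP2A and SMARCE1 held 1 GC box each, and that of CDC6 held none. AP-1 sites (TGANTCA, in 7.71% of all windows) were in none of the 8. These matches are letters in a window, not measured binding.

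The windows of CDC6 (chr17:40287629-40287928, plus strand) and TOP2A (chr17:40417847-40418146, minus strand) are shown because these 2 genes had like patterns across the groups once each was centred on its own mean; they were picked after those values were seen. Here CCAAT boxes (CCAAT, or ATTGG on the other strand) and E2F sites (TTTNGCGC on either strand) are in capitals.
CDC6: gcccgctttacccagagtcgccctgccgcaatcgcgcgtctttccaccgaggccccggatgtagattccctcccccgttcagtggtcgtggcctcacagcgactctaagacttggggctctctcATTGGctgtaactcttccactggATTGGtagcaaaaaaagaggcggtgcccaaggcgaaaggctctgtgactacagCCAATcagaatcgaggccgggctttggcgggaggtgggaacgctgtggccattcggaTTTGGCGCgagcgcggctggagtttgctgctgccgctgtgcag
TOP2A: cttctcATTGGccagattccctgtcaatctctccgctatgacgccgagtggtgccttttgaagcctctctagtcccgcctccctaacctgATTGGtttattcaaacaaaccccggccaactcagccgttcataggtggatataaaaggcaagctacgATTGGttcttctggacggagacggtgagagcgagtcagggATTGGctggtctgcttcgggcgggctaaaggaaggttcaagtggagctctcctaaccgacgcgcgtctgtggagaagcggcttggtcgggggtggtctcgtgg

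CDC6 had 3 CCAAT boxes, at -126, -103 and -50, and 1 E2F site at position 7 after the start. TOP2A had 4 CCAAT boxes, at -244, -160, -93 and -53, and no E2F site. A CCAAT box was in 34.6% of all 35116 windows and an E2F site in 1.79%. CCAAT boxes were also in the windows of WIPF2 (-186), RARA start 2 (-78) and SMARCE1 (-173), so they were not particular to CDC6 and TOP2A. Neither the CDC6 nor the TOP2A window held an estrogen response half-site.

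RARA, the retinoic acid receptor, had 1114 to 4309 counts a library, the most of the 9 and so the smallest relative counting error. Its level was 670 and 614 CPM in the estradiol libraries and 245 and 242 CPM in the starved vehicle libraries. In complete medium it was 226 and 221 CPM with fulvestrant, 299 and 306 CPM with raloxifene, 334 and 304 CPM with tamoxifen, and 419 and 375 CPM with vehicle. The estradiol libraries stood above all others and the fulvestrant libraries below all others. Only tamoxifen and raloxifene overlapped among groups next to each other in this order.

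IGFBP4, the insulin-like growth factor binding protein, spanned the widest range on the log2 scale. Its level was 227 and 210 CPM in the estradiol libraries and 26.0 and 21.2 CPM in the starved vehicle libraries. In complete medium it was 37.8 and 35.8 CPM with fulvestrant, 72.7 and 82.8 CPM with raloxifene, 98.9 and 100 CPM with tamoxifen, and 146 and 124 CPM with vehicle. All 6 groups were apart from each other, in the order estradiol, complete vehicle, tamoxifen, raloxifene, fulvestrant and starved vehicle. Per kb of gene span, introns included, IGFBP4 averaged 15.3 CPM per kb with estradiol and 1.65 CPM per kb in starved vehicle cells, and RARA averaged 13.2 CPM per kb with estradiol and 5.02 CPM per kb in starved vehicle cells. On that scale the level of IGFBP4 was above that of RARA with estradiol and below it in starved vehicle cells. This order of the 2 genes assumes that reads were counted over the whole span. No source used here gives the counted part of a gene.

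TNS4, the short tensin, was highest in vehicle-treated cells of complete medium. Its level was 65.2 and 64.1 CPM in the estradiol libraries and 37.5 and 38.4 CPM in the starved vehicle libraries. In complete medium it was 52.3 and 54.1 CPM with fulvestrant, 54.3 and 49.2 CPM with raloxifene, 67.0 and 61.2 CPM with tamoxifen, and 82.2 and 71.9 CPM with vehicle. The starved vehicle libraries were below all others, and the ranges of fulvestrant and raloxifene, and those of estradiol and tamoxifen, overlapped.

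The replication gene CDC6 and the topoisomerase gene TOP2A divided the libraries by medium. CDC6 was at 46.4 and 48.9 CPM with estradiol and 36.8 and 42.7 CPM with vehicle in starved cells. In complete medium it was at 64.9 and 55.7 CPM with fulvestrant, 65.1 and 63.6 CPM with raloxifene, 60.7 and 58.6 CPM with tamoxifen, and 61.9 and 70.1 CPM with vehicle. TOP2A was at 139 and 152 CPM with estradiol and 126 CPM in both vehicle libraries of starved cells. In complete medium it was at 183 and 215 CPM with fulvestrant, 187 and 206 CPM with raloxifene, 183 and 209 CPM with tamoxifen, and 220 and 224 CPM with vehicle. For both genes all 4 starved libraries, estradiol included, were below all 8 libraries of complete medium.

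The other 4 genes moved little or were at low counts. WIPF2 averaged 153 ± 1.36 CPM with estradiol, 139 ± 3.45 CPM in starved vehicle cells and 144 ± 0.958 CPM in complete vehicle cells (SD, n = 2 each), and its 12 libraries lay between 133 and 154 CPM. SMARCE1 averaged 142 ± 5.7 CPM with estradiol, 128 ± 1.27 CPM in starved vehicle cells and 125 ± 5.14 CPM in complete vehicle cells (SD, n = 2 each), with a range of 108 to 146 CPM. GJD3 had 14 to 35 counts a library and 3.39 to 7.13 CPM, and the 2 complete vehicle libraries held both 4.61 and 7.13 CPM. GJD3 shares 1893 bases with its antisense RNA GJD3-AS1, and since no source used here gives the strand setting of the counting, reads of the 2 cannot be told apart. CCR7, the lymphocyte receptor, had 6 to 22 counts a library and 1.22 to 3.47 CPM. No difference of it between groups passed the adjusted p threshold at this depth.

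**Figure D1:**
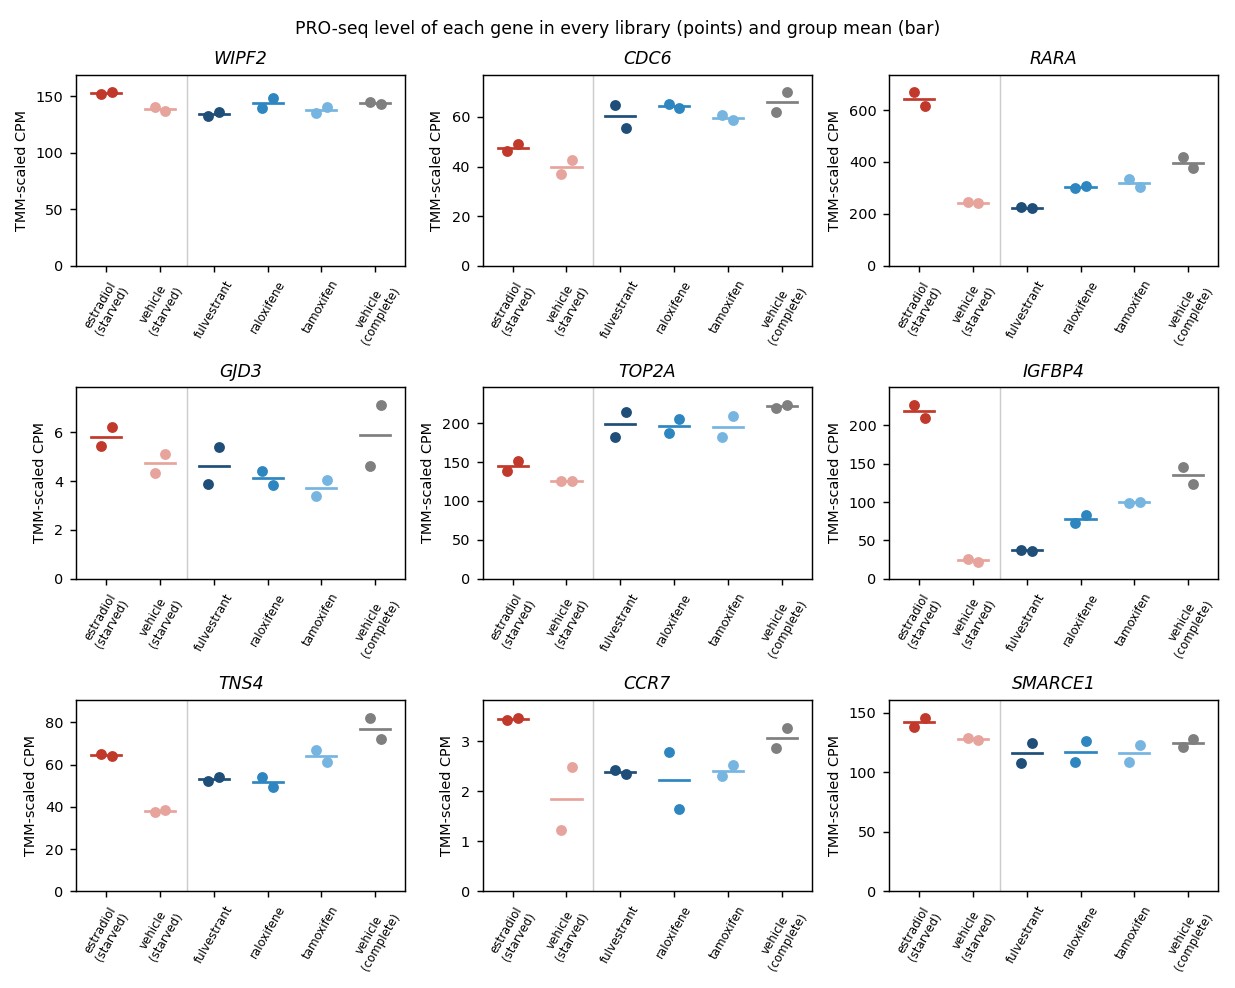
Level of each of the 9 genes (TMM-scaled CPM, from 0) in every library (points) of the 6 groups, with the group mean as a bar; the grey line parts starved cells (left) from complete medium (right). RARA reached 670 and 614 CPM and IGFBP4 227 and 210 CPM with estradiol, above their other libraries, whereas CDC6 and TOP2A were lower in all 4 starved libraries than in the 8 of complete medium.

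What 1 h of estradiol did in starved cells was asked by setting those libraries against starved vehicle. Of the 9 genes RARA, IGFBP4 and TNS4 rose and none fell, with edgeR's quasi-likelihood test and an adjusted p under 0.05 over all genes. Of all 23375 genes tested 5.04% rose; the list was chosen with this comparison known, so nothing is read from the 3 of 9. IGFBP4 was 9.24-fold higher (log2 fold change 3.21 ± 0.098, SE derived from the test), RARA 2.64-fold (1.40 ± 0.0614) and TNS4 1.70-fold (0.77 ± 0.0907). The replication genes CDC6 (0.26 ± 0.102) and TOP2A (0.21 ± 0.0814), which lie on either side of RARA, did not pass. Nor did WIPF2 (0.14 ± 0.0587), SMARCE1 (0.15 ± 0.0786), GJD3 (0.30 ± 0.262) or CCR7 (0.90 ± 0.375). The 95% interval of the log2 change was 0.0613 to 0.462 for CDC6 and 0.168 to 1.64 for CCR7. The median log2 fold change of the 9 was 0.30, and that of all genes tested was -0.013. TOP2A passed in the fit without a filter on low counts, with the replicate block and with only these 2 groups, where the count of the 9 was 4.

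What 3 days without hormone did was asked by setting starved vehicle cells against complete vehicle cells. CDC6, RARA, TOP2A, IGFBP4 and TNS4 were lower in starved cells, 5 of the 9, and none was higher. Of all genes tested 9.67% fell; again the list was chosen with this comparison known. IGFBP4 was 5.74-fold lower (-2.52 ± 0.103), TNS4 2.04-fold (-1.03 ± 0.0892), TOP2A 1.76-fold (-0.82 ± 0.0789), CDC6 1.65-fold (-0.73 ± 0.0982) and RARA 1.63-fold (-0.71 ± 0.0623). WIPF2 (-0.052 ± 0.0595) and SMARCE1 (0.038 ± 0.0803) had intervals of -0.168 to 0.0648 and -0.119 to 0.195 on the log2 scale. GJD3 (-0.29 ± 0.266) and CCR7 (-0.73 ± 0.388) did not pass either. The median log2 fold change of the 9 was -0.73, beside 0.0073 over all genes. In bulk cells a smaller share of cells in the division cycle and less transcription per cell cannot be told apart, which touches CDC6 and TOP2A first. Both groups spent 3 days in their medium. The medium and its hormone content changed together and cannot be told apart here.

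Each antagonist at 100 nM was then set against vehicle in complete medium after 1 h. With fulvestrant RARA, IGFBP4 and TNS4 fell, 3 of the 9, against 1.05% of all genes tested. IGFBP4 was 3.69-fold lower (-1.88 ± 0.099), RARA 1.78-fold (-0.83 ± 0.0634) and TNS4 1.45-fold (-0.54 ± 0.0873). With raloxifene the same 3 genes fell, against 0.479% of all genes tested, and IGFBP4 was 1.77-fold lower (-0.83 ± 0.0897), TNS4 1.48-fold (-0.56 ± 0.0885) and RARA 1.31-fold (-0.39 ± 0.0626). With tamoxifen 0 of the 9 passed edgeR's test, against 0.0513% of all genes tested in either direction; 5 had an unadjusted p under 0.05, and DESeq2 called 2, RARA and IGFBP4. The log2 values with tamoxifen were -0.45 ± 0.0843 for IGFBP4, -0.32 ± 0.0615 for RARA and -0.27 ± 0.0835 for TNS4.

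These 3 antagonist comparisons share their vehicle libraries, so they are not independent of each other. The complete vehicle libraries of IGFBP4 (146 and 124 CPM), RARA (419 and 375 CPM) and TNS4 (82.2 and 71.9 CPM) differed among themselves, with library 3 the higher in each. Without complete vehicle library 3 the raloxifene comparison called 1 of the 9: RARA (-0.31) and TNS4 (-0.46) no longer passed, and with fulvestrant TNS4 (-0.44) did not pass either, which left 2 of the 9. CDC6 and TOP2A did not pass with any antagonist. TOP2A was at -0.16 ± 0.077 with fulvestrant, -0.19 ± 0.078 with raloxifene and -0.18 ± 0.0764 with tamoxifen, and CDC6 at -0.12 ± 0.0949, -0.027 ± 0.0951 and -0.14 ± 0.0935 in that order. WIPF2, SMARCE1, GJD3 and CCR7 did not pass either. The median of the 9 was -0.32 with fulvestrant, -0.35 with raloxifene and -0.27 with tamoxifen, beside 0.0059, 0.0061 and 0.0047 over all genes.

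**Figure D2:**
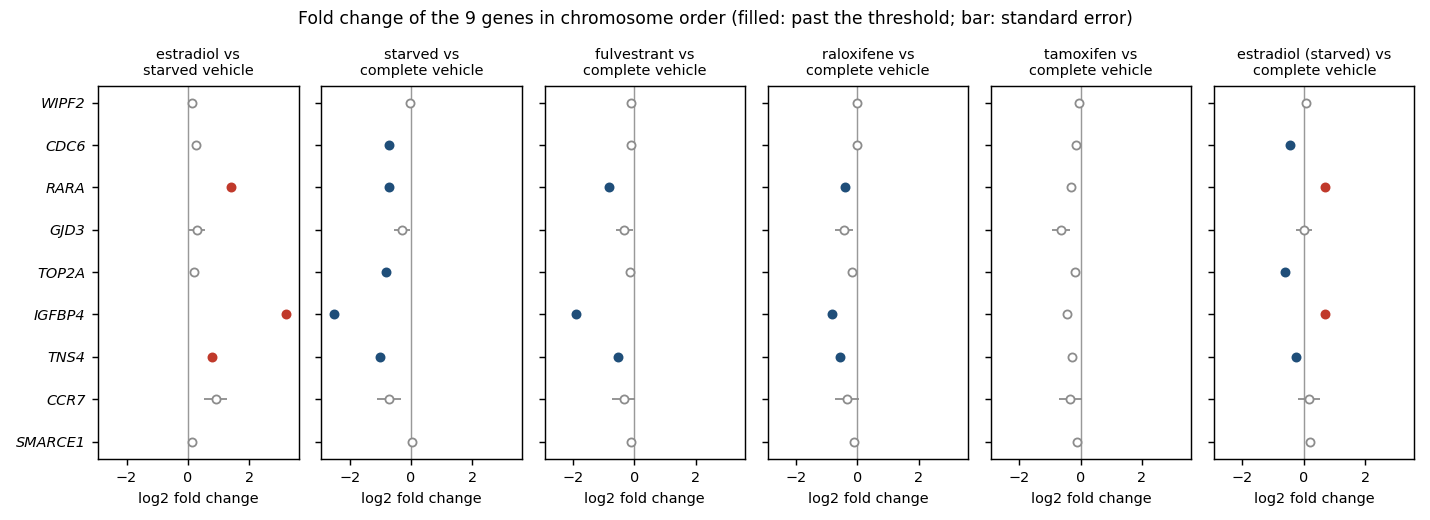
Log2 fold change of the 9 genes (rows, in chromosome order) in 6 comparisons, each point with its standard error; filled points passed the adjusted p threshold, red higher and blue lower. RARA, IGFBP4 and TNS4 moved up with estradiol and down with fulvestrant and raloxifene, and CDC6 and TOP2A were filled only in the panels that set starved against complete cells.

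Estradiol-treated starved cells were also set against complete vehicle cells. Its log2 fold changes are the sums of those with estradiol and those with starvation above, by which the genes were chosen, so they too are a description with no p-value. The list divided: RARA and IGFBP4 were higher, CDC6, TOP2A and TNS4 were lower, and 4 did not pass. Of all genes tested 8.09% were higher and 8.11% lower, and nothing is read from the 5 of 9. RARA averaged 642 ± 40.1 CPM with estradiol and 397 ± 31.5 CPM in complete vehicle cells (SD, n = 2 each), a log2 fold change of 0.69 ± 0.0602. IGFBP4 averaged 219 ± 12.1 CPM with estradiol and 135 ± 15.5 CPM in complete vehicle cells (SD, n = 2 each), a change of 0.69 ± 0.0791. These 2 genes thus had nearly the same excess over complete medium, although IGFBP4 had been 5.74-fold and RARA 1.63-fold lower in starved vehicle cells.

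TOP2A averaged 146 ± 9.25 CPM with estradiol and 222 ± 3.1 CPM in complete vehicle cells (SD, n = 2 each), a log2 change of -0.61 ± 0.0792. CDC6 was lower too (-0.47 ± 0.0982), a call lost without complete vehicle library 4 (-0.37). TNS4 was lower by 1.20-fold (-0.26 ± 0.0847), a call that DESeq2 did not make (-0.25) and that was lost without the filter on low counts (-0.22), without estradiol library 3 (-0.27), estradiol library 4 (-0.25) or complete vehicle library 3 (-0.14). WIPF2 (0.083 ± 0.06), SMARCE1 (0.19 ± 0.0808), GJD3 (0.013 ± 0.264) and CCR7 (0.18 ± 0.358) did not pass. The median of the 9 was 0.083, beside 0.0018 over all genes.

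The 3 antagonists, which differ in structure as given above, were all given at 100 nM for 1 h. The 3 pairs were compared directly, with p-values adjusted over all genes within each pair. Equal dose need not mean equal occupancy of the receptor, which was not measured. Whether the antagonists differed in potency, uptake or mode of action was not tested. Each pair is the difference of 2 antagonist comparisons by which the 9 genes were chosen, so their counts and values are a description, and no p-value is given for them. Tamoxifen left 2 of the 9 genes higher than fulvestrant did, against 0.453% of all genes tested. IGFBP4 averaged 99.5 ± 0.754 CPM with tamoxifen and 36.8 ± 1.43 CPM with fulvestrant (SD, n = 2 each), a 2.70-fold difference (1.43 ± 0.101). RARA averaged 319 ± 20.9 CPM with tamoxifen and 224 ± 2.93 CPM with fulvestrant (SD, n = 2 each), a 1.43-fold difference (0.51 ± 0.0635). Raloxifene also left IGFBP4 (77.7 ± 7.18 CPM with raloxifene and 36.8 ± 1.43 CPM with fulvestrant, SD, n = 2 each; log2 difference 1.06 ± 0.107) and RARA (303 ± 5.41 CPM with raloxifene and 224 ± 2.93 CPM with fulvestrant, SD, n = 2 each; log2 difference 0.44 ± 0.0646) higher than fulvestrant did, against 0.103% of all genes tested. Without fulvestrant library 4 the RARA difference between raloxifene and fulvestrant was 0.42 and did not pass, and the count was 1.

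TNS4, unlike these, was at 51.8 ± 3.57 CPM with raloxifene and 53.2 ± 1.26 CPM with fulvestrant (SD, n = 2 each). Its log2 difference was -0.022, with a 95% interval of -0.204 to 0.16. Between tamoxifen and fulvestrant the difference of TNS4 was 0.27 with an interval of 0.101 to 0.444 and did not pass over all genes. Tamoxifen against raloxifene gave 0 of the 9, against 0.00428% of all genes tested in either direction; 2 had an unadjusted p under 0.05, and DESeq2 called 0. IGFBP4 passed with the replicate block (0.39) and without the filter on low counts (0.39). Those at an unadjusted p under 0.05 were IGFBP4 (0.38, interval 0.198 to 0.555) and TNS4 (0.30, interval 0.121 to 0.469), and their libraries did not overlap. Since the 9 genes were chosen by the antagonist comparisons, these values and all intervals of the pairs are a description, and nothing is read from them. For RARA the log2 difference of tamoxifen from raloxifene was 0.078, with an interval of -0.0447 to 0.201.

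The 500 kb on either side of the 9 genes and the remainder of their span held other genes. Within the span RefSeq annotates 10 more genes, of which 5 were in the table and 2 were tested; in the flanks it annotates 68, of which 58 were in the table and 19 were tested. These were taken by position and not by their values, but earlier results of these data were known, and RAPGEFL1, MSL1, CASC3 and KRT222 lie within the interval from which the 9 were listed. RAPGEFL1, a gene of the family of Rap guanine nucleotide exchange factors that starts 132 kb before RARA (chr17:40177010-40195650), was called in the same direction as RARA in 3 comparisons. Its level was 134 and 120 CPM with estradiol and 50.1 and 46.5 CPM with starved vehicle; in complete medium it was 82.9 and 77.8 CPM with fulvestrant, 89.1 and 93.0 CPM with raloxifene, 93.3 and 99.3 CPM with tamoxifen, and 113 and 110 CPM with vehicle. It rose with estradiol (1.39 ± 0.0769, edgeR adjusted p = 4.14e-11), was lower in starved than in complete cells (-1.20 ± 0.0786, edgeR adjusted p = 5.34e-10) and fell with fulvestrant (-0.47 ± 0.0752, edgeR adjusted p = 0.00108). In the other comparisons where RARA was called, RAPGEFL1 was not. These were raloxifene (-0.30 ± 0.075) and estradiol-treated starved cells (0.19 ± 0.0711) against complete vehicle, and tamoxifen (0.26 ± 0.075) and raloxifene (0.17 ± 0.0775) against fulvestrant.

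Of the 21 tested neighbours 2 rose with estradiol and 2 fell, against 5.04% of all genes tested that rose and 3.74% that fell. The other riser was GJD3-AS1, the antisense RNA over GJD3 (chr17:40362845-40365435), which lies shortly past the end of RARA. Whether reads of transcription that runs past the end of RARA enter its counts was not tested. The level of GJD3-AS1 was 31.3 and 22.3 CPM in the estradiol libraries and 14.9 and 15.5 CPM in the starved vehicle libraries (0.83 ± 0.156, edgeR adjusted p = 0.000995). The call was lost without estradiol library 3 (0.56, adjusted p = 0.0800; edgeR). ERBB2, the gene of the HER2 receptor 621 kb before RARA, fell to 140 and 134 CPM with estradiol, against 205 and 187 CPM with starved vehicle (-0.52 ± 0.0754, edgeR adjusted p = 6.19e-05). THRA, the thyroid hormone receptor alpha gene, also fell (-0.46 ± 0.129, edgeR adjusted p = 0.0272), a call that DESeq2 did not make (-0.46, adjusted p = 0.160) and that was lost without starved vehicle library 3 (-0.54, adjusted p = 0.0512), starved vehicle library 4 (-0.37, adjusted p = 0.269) or estradiol library 4 (-0.33, adjusted p = 0.313; edgeR).

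In starved against complete vehicle cells 6 of the 21 neighbours were higher and 3 lower, all in the flanks, against 9.10% of all genes tested that were higher and 9.67% lower. GSDMB (1.59 ± 0.124, edgeR adjusted p = 7.18e-09), ORMDL3 (1.04 ± 0.141, 1.50e-05) and LRRC3C (0.77 ± 0.133, 0.000231), which stand side by side 381 to 405 kb before RARA, were higher together, as was ERBB2 (0.71 ± 0.0771, 8.42e-07). GSDMB encodes a pore-forming gasdermin and ORMDL3 a regulator of sphingolipid synthesis. With estradiol added these 3 stayed above complete vehicle, at 1.68 ± 0.125, 1.33 ± 0.14 and 0.995 ± 0.133 (edgeR adjusted p = 6.67e-09, 7.75e-07 and 1.60e-05). In that comparison 6 of the 21 neighbours were higher and 2 lower, against 8.09% and 8.11% of all genes tested, or 5 in all without complete vehicle library 3. The starved-cell calls of GRB7, CASC3, NR1D1 and KRT10-AS1 were lost with DESeq2, and with it the count of neighbours was 5; it was also 5 without complete vehicle library 4. With fulvestrant RAPGEFL1 was the single neighbour called, against 1.16% of all genes tested in either direction. With raloxifene or tamoxifen edgeR and DESeq2 called 0 of 21, with 1 and 3 at an unadjusted p under 0.05. The shares of all genes tested were 0.569% and 0.0513% in that order, so nothing is read from the 0 of 21.

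**Figure D3:**
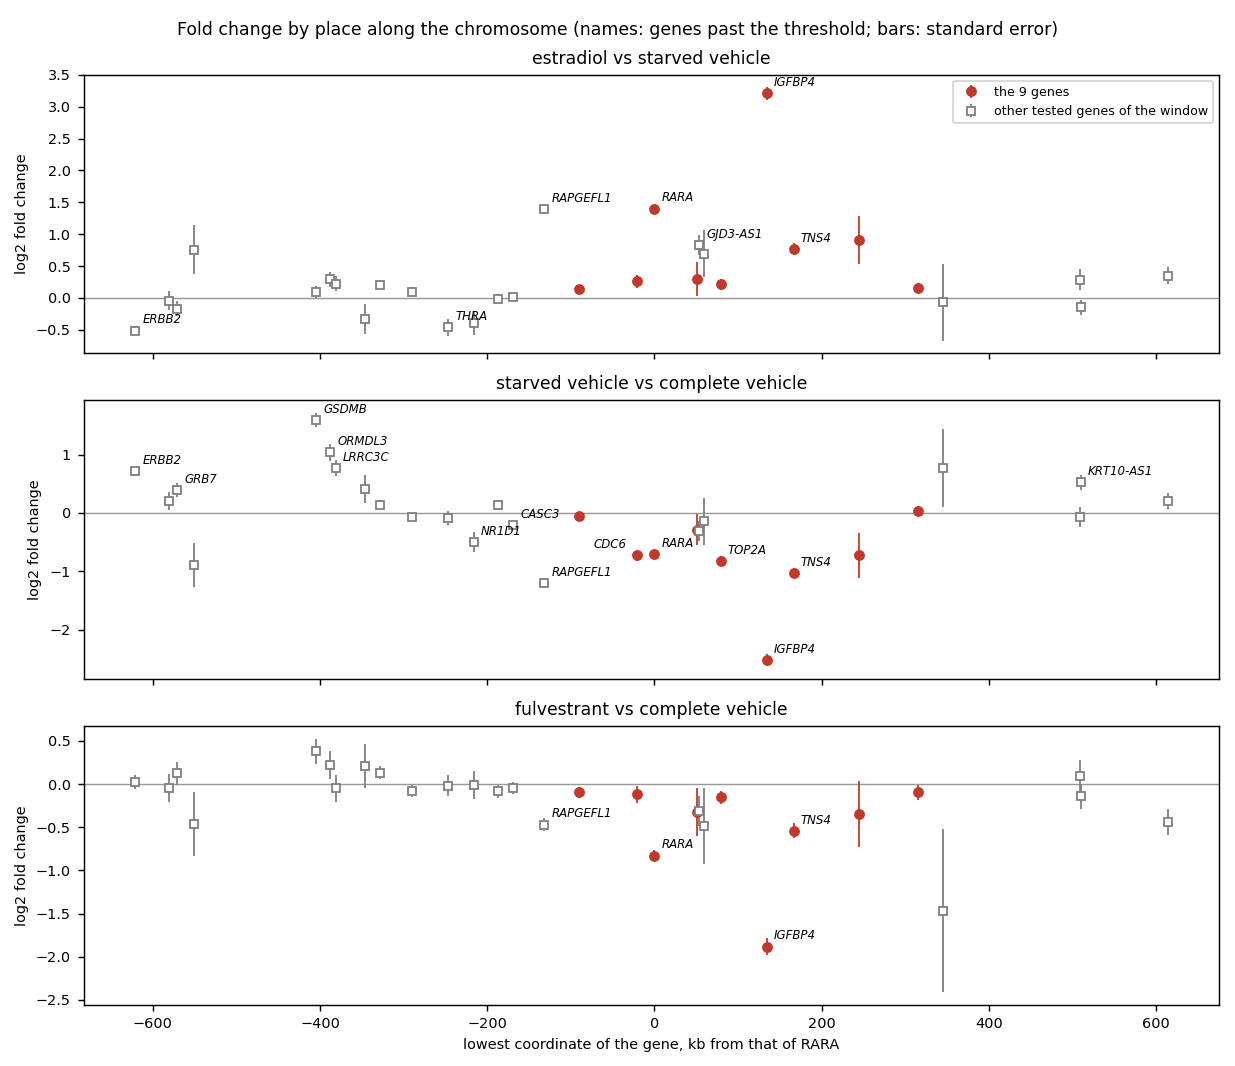
Log2 fold change (standard error as bars) of the 9 genes (red) and of the other tested genes within 500 kb (open squares) by the distance of the gene's lowest coordinate from that of RARA in kb; names mark genes past the threshold. With estradiol the genes past the threshold upward lie between RAPGEFL1 at -132 kb and TNS4, with uncalled genes between them, and in starved cells GSDMB, ORMDL3 and LRRC3C stand above 0 at the left.

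The genes that work with the 9 proteins were taken as 8 lists, also written with earlier results known. Of 15 tested genes of retinoid signalling, the field of RARA, 2 rose with estradiol and 1 fell, against 5.04% of all genes tested that rose and 3.74% that fell. NRIP1, a corepressor of nuclear receptors, averaged 303 CPM with estradiol and 140 CPM with starved vehicle (1.11 ± 0.0645, edgeR adjusted p = 8.38e-11), and fell with fulvestrant to 172 CPM, against 295 CPM with vehicle (-0.78 ± 0.0647, edgeR adjusted p = 2.04e-07). DHRS3, a retinaldehyde reductase, rose with estradiol (0.96 ± 0.118, edgeR adjusted p = 6.91e-06), and RARG, the gamma receptor, fell (-0.30 ± 0.0941, edgeR adjusted p = 0.0484), a call lost with RLE scaling (-0.30, adjusted p = 0.0508), with DESeq2 (adjusted p = 0.163) and without any 1 of the 4 libraries. RARB, the beta receptor, was higher in starved than in complete vehicle cells, with 17.5 CPM against 8.14 CPM (1.09 ± 0.18, edgeR adjusted p = 0.00015). The median of the list with estradiol was -0.055, beside -0.013 over all genes.

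Of 10 tested genes around insulin-like growth factor binding, the field of IGFBP4, 4 rose with estradiol and none fell, against 5.04% and 3.74% of all genes tested. STC2, an inhibitor of the protease PAPP-A that cuts IGFBP4, averaged 713 CPM with estradiol and 327 CPM with starved vehicle (1.13 ± 0.0757, edgeR adjusted p = 8.16e-10). The receptor gene IGF1R averaged 702 CPM with estradiol and 478 CPM with starved vehicle (0.56 ± 0.044, edgeR adjusted p = 1.13e-08), and IGFBP5, the gene of another binding protein, 511 CPM with estradiol and 370 CPM with starved vehicle (0.47 ± 0.0699, edgeR adjusted p = 8.28e-05). IGF1R, STC2 and IGFBP5 also fell with fulvestrant, at -0.40 ± 0.0438, -0.51 ± 0.0744 and -0.41 ± 0.0752 (edgeR adjusted p = 8.18e-06, 0.000365 and 0.00425). The IGFBP5 call was lost without complete vehicle library 3 (-0.37, adjusted p = 0.149) or fulvestrant library 3 (-0.31, adjusted p = 0.179; edgeR). IGFBP5 parted from IGFBP4 in starved cells, where it was higher than in complete vehicle cells (0.36 ± 0.0722, edgeR adjusted p = 0.00105) while IGFBP4 was lower. The list's median with estradiol was 0.24, beside -0.013 over all genes.

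All 18 tested genes of origin licensing and the topoisomerases, the field of CDC6 and TOP2A, were without a call after estradiol in edgeR's test. This was 0 of 18, against 8.77% of all genes tested in either direction. At an unadjusted p under 0.05 there were 3, and DESeq2 called 0. The median of the 18 was 0.0066. In starved against complete vehicle cells 13 of the 18 fell and none rose, against 9.67% and 9.10% of all genes tested, with a median of -0.47 beside 0.0073 over all genes. The helicase genes MCM5 (-0.92 ± 0.116, edgeR adjusted p = 5.67e-06), MCM2 (-0.69 ± 0.0902, 9.16e-06) and MCM3 (-0.67 ± 0.0878, 9.44e-06) had the smallest adjusted p of this list, and by fold change CDT1, which helps load the helicase, was the lowest (-0.96 ± 0.14, edgeR adjusted p = 3.62e-05). With estradiol 12 of the 18 were still below complete vehicle, against 8.11% of all genes tested, with a median of -0.44 beside 0.0018 over all genes and MCM2 at -1.002 ± 0.0965 (edgeR adjusted p = 2.32e-07). With each antagonist 0 of the 18 were called by edgeR and by DESeq2, with 0 to 1 at an unadjusted p under 0.05. Of all genes tested edgeR called 1.16% with fulvestrant, 0.569% with raloxifene and 0.0513% with tamoxifen in either direction. At such shares nothing is read from the 0 of 18. The medians of the 18 were -0.056 with fulvestrant, -0.036 with raloxifene and 0.016 with tamoxifen.

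Of 11 tested focal adhesion partners of the tensins, 6 were higher in starved than in complete vehicle cells and none was lower, against 9.10% and 9.67% of all genes tested, the opposite direction to TNS4. TNS3, a full-length tensin, averaged 1010 CPM in starved vehicle and 573 CPM in complete vehicle cells (0.81 ± 0.0595, edgeR adjusted p = 3.08e-09), EGFR 116 CPM and 56.3 CPM in that order (1.03 ± 0.0796, 5.97e-09), and PXN, the gene of paxillin, 206 CPM and 119 CPM (0.78 ± 0.0666, 2.53e-08). With estradiol PXN (-0.34 ± 0.064, edgeR adjusted p = 0.000978) and TNS3 (-0.27 ± 0.0585, edgeR adjusted p = 0.00376) fell, where TNS4 rose; the TNS3 call was lost without starved vehicle library 3 (-0.24, adjusted p = 0.0779) or estradiol library 4 (-0.16, adjusted p = 0.131). Of 12 actin nucleation partners of WIPF2, 2 rose with estradiol (ARPC3 0.26 ± 0.0695 and ARPC5 0.29 ± 0.0818; edgeR adjusted p = 0.0224 and 0.0259), against 5.04% of all genes tested, and DESeq2 made neither call (adjusted p = 0.171 and 0.136). The ARPC3 call was lost without any 1 of the 4 libraries, with changes of 0.24 to 0.28, and the ARPC5 call without starved vehicle library 4 (0.24), estradiol library 3 (0.35) or estradiol library 4 (0.24).

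Of 17 tested partners of SMARCE1 in the BAF complex, 2 rose with estradiol and 1 fell, against 5.04% and 3.74% of all genes tested. ARID2, a subunit of the PBAF form, had the smallest adjusted p (0.47 ± 0.0611, edgeR adjusted p = 1.45e-05), and SMARCA2, a catalytic ATPase, fell (-0.34 ± 0.072, edgeR adjusted p = 0.00291), a call lost without estradiol library 3 (-0.30, adjusted p = 0.0672). The other riser was ARID1B, a large subunit of the BAF form, whose call was lost without scaling (0.13, adjusted p = 0.0576), with DESeq2 (0.18, adjusted p = 0.0543) and without any 1 of the 4 libraries (adjusted p = 0.0628 to 0.158; edgeR). Of 12 connexins 3 were tested. GJA1, the connexin 43 gene, was lower in starved than in complete vehicle cells, with 1.05 CPM against 4.92 CPM (-2.22 ± 0.377, edgeR adjusted p = 0.000198), a gene that DESeq2 left without an adjusted p for its low counts. Of 9 chemokine genes around CCR7, 4 were tested, and CXCL12, the ligand of the receptors CXCR4 and ACKR3 and not of CCR7, rose with estradiol to 75.1 CPM, against 12.9 CPM with starved vehicle (2.55 ± 0.127, edgeR adjusted p = 8.43e-12). It fell with fulvestrant to 32.2 CPM, against 117 CPM with vehicle (-1.86 ± 0.106, edgeR adjusted p = 6.95e-10), the same order of groups as in IGFBP4 except that estradiol stood below complete vehicle and below tamoxifen (92.0 CPM).

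How alike the patterns were was measured over the 6 group means of log2 CPM, each gene centred on its own mean, as the root mean square difference among 14629 genes with at least 50 counts a library on average. This is a description, over 6 values that rest on the same 12 libraries. The genes nearest to RARA were THBS1 (0.0735), the gene of thrombospondin 1, and SIAH2 (0.0831), a ubiquitin ligase gene, and those nearest to IGFBP4 were SPINK4 (0.183), KCNK5 (0.257) and NKAIN1 (0.27); none lies on chromosome 17. Nearest to TNS4 were CRKL (0.0492) and GRPR (0.0672), nearest to WIPF2 PJVK (0.0066) and SCAF11 (0.015), and nearest to SMARCE1 PTPN9 (0.0178) and ARID3B (0.0182). GJD3 and CCR7 were below the count limit.

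CDC6 and TOP2A, of the replication and chromosome machinery, were near each other in pattern. Their difference was 0.0557, which put TOP2A at place 15 of the 14628 other genes by likeness to CDC6, and CDC6 at place 16 by likeness to TOP2A. Both had NCAPH, a condensin gene, among their 3 nearest (0.0338 from CDC6 and 0.0432 from TOP2A), and BARD1, the partner of BRCA1, was nearest to TOP2A (0.0211). PAICS, of purine synthesis, was nearest to CDC6 (0.0313). FARSB (0.0346) was also among the 3 nearest to CDC6, and STIL (0.043) among the 3 nearest to TOP2A. RARA lies between CDC6 and TOP2A on the chromosome, yet CDC6 was at 0.575 and TOP2A at 0.603 from it. Among the 3 genes that rose with estradiol, IGFBP4 was at 0.661 from RARA and at 0.829 from TNS4, and RARA at 0.39 from TNS4. By likeness to IGFBP4, RARA was at place 68 and TNS4 at place 192 of the 14628 other genes, and by likeness to RARA, TNS4 was at place 618. Seen from the other side the places were farther: by likeness to RARA, IGFBP4 was at place 13894. By likeness to TNS4, RARA was at place 11085 and IGFBP4 at place 14582. The measure is not scaled for how far a gene moves, so genes that move the same way by unlike amounts can be far apart. The range over the groups was 3.2 for IGFBP4, 1.52 for RARA and 0.179 for WIPF2 on the log2 scale. By likeness to RARA the little-changed WIPF2 (0.449) and SMARCE1 (0.43) were nearer than IGFBP4 (0.661).

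**Figure D4:**
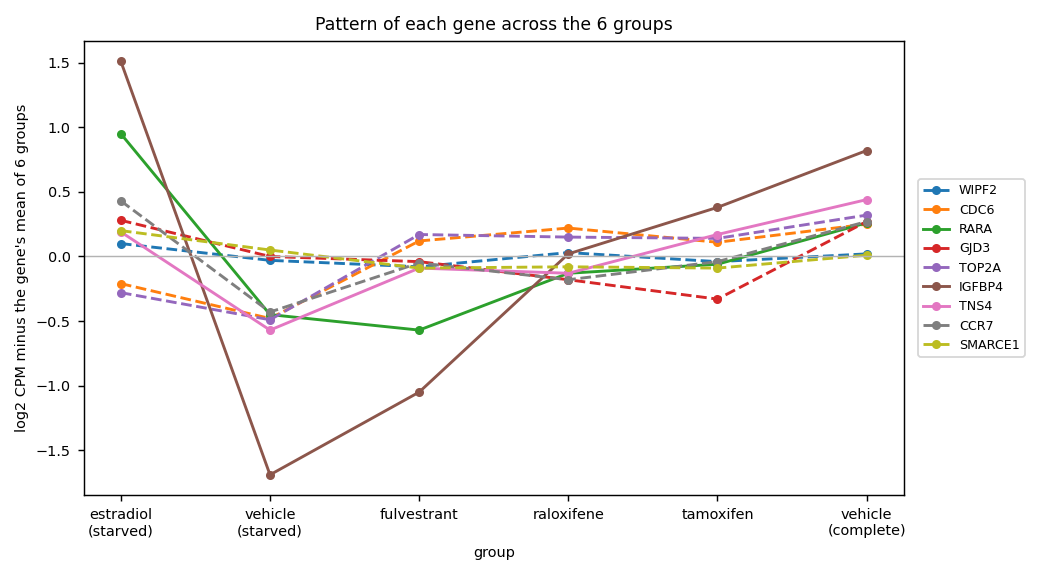
Group means of log2 CPM of each of the 9 genes after subtraction of the gene's mean of 6 groups (y axis, log2) by group (x axis); solid lines mark RARA, IGFBP4 and TNS4, and the lines join groups only to guide the eye. CDC6 and TOP2A run together, low in both starved groups, and IGFBP4 spans from 1.51 with estradiol to -1.69 with starved vehicle.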

How the data were processed

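PRO-seq of T47D cells was analysed in 12 libraries, 2 in each of 6 groups set by the labels' descriptions. The authors deposited 1 table of raw counts per Ensembl gene ID. The submitters' processing notes name hg38 and list SAMtools 1.9, Bowtie2 2.4.4 and cutadapt 1.8.1 without order or role; no source used here gives the counting tool, annotation, strand setting or counted part of a gene. Of 60605 IDs, 142 without a symbol (0.281% of counts) were given no name, and 1195 lower duplicates of a symbol were left out, which leaves 59410. Symbols, positions and promoters came from RefSeq tables (GRCh38.p14).

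Genes that passed filterByExpr (23375) were fitted with edgeR 4.0.16 in R 4.3.3 (glmQLFit and glmQLFTest, TMM scaling) over all 12 libraries with group as the only term, and p-values were adjusted by Benjamini-Hochberg over all genes, with a threshold of 0.05. Levels are TMM-scaled CPM. SE is the absolute log2 fold change divided by the square root of the test's F value. The 95% intervals use the normal distribution with that SE, so they are somewhat narrower than the test's own distribution would give. Counting error limits genes of few reads, and reads without molecular identifiers are not independent molecules. Between paired libraries of a group the chi-square of counts per gene was 1.2 to 2.34, so no library was taken as a repeat deposit. Pattern likeness used log2 CPM with a prior count of 2.

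The 9 genes and all lists were chosen with earlier results of these data known. Named were all 9 genes, called neighbours, called genes of each list, and the 3 genes nearest in pattern, leaving out IDs without a symbol. The limit was 6 neighbours per comparison and 3 genes per list and comparison. Beyond it, GRB7, CASC3 and NR1D1 were named for lost starved-cell calls, and CDT1 for its fold change. Alternatives were other scaling, no filter, the replicate block, only 2 groups, DESeq2 1.42.0, each library left out, and flanks of 250 and 1000 kb.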

Additional observations from a re-analysis of the deposited data

How the results depend on the processing

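Counts of the 9 genes called were the same under no scaling and RLE scaling in all 9 comparisons, and no fold change of a called gene reversed. For tamoxifen against complete vehicle the count of 0 became 2 without the filter on low counts, 2 with the replicate block, 1 with only the 2 groups and 2 with DESeq2. For tamoxifen against raloxifene the 0 became 1 (IGFBP4) without the filter and 1 (IGFBP4) with the replicate block. When each library was left out in turn, the count was 1 to 3 for raloxifene against complete vehicle and 1 to 2 for raloxifene against fulvestrant; the libraries concerned are named in the report. No source used here says whether a replicate number marks a shared culture or day. Same-numbered deviations correlated at 0.0467 to 0.362 over 2 numbers, with 0.271 to 0.362 among the 3 antagonist groups, and the block is given as an alternative. With the replicate block the 9 genes gave 4 calls for estradiol against starved vehicle (3 without it) and 6 for estradiol-treated starved against complete vehicle (5 without it, 4 with DESeq2), where SMARCE1 was added (0.18).

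The following counts over all genes include those that moved by more than 1.5 times, for which the cause was not tested. DESeq2 called 1114 genes with estradiol against starved vehicle (2051 in edgeR), 2379 in starved against complete vehicle (4386) and 2094 in estradiol-treated starved against complete vehicle (3788); leaving out 1 library gave 1155 to 1325, 2555 to 2875 and 2229 to 2616. For fulvestrant, raloxifene and tamoxifen against complete vehicle edgeR called 270, 133 and 12; the replicate block gave 498, 490 and 172, no filter 354 for raloxifene and 93 for tamoxifen, DESeq2 and the fit of only 2 groups 21 each for tamoxifen, and 1 library left out 143 to 197, 29 to 204 and 0 to 13. For tamoxifen against fulvestrant the 108 became 242 with the block, 170 without the filter, 66 with 2 groups and 48 to 86 with 1 library left out. For raloxifene against fulvestrant the 24 became 77 with the block, 90 without the filter and 14 to 168 with 1 library left out, and for tamoxifen against raloxifene the 1 became 35, 65 and 0 to 164 in that order, and 0 with 2 groups. With a flank of 1000 kb the neighbours called with estradiol were 7 (4 at 500 kb) and with fulvestrant 2 (1) and with raloxifene 1 (0), and with a flank of 250 kb those called in starved against complete vehicle were 4 (9) and in estradiol-treated starved against complete vehicle 4 (8). The fulvestrant count was also 2 without the filter, with the block and with 2 groups, and the raloxifene count 1 without the filter and with the block. Called partner genes with estradiol were 9 to 11 with 1 library left out (15). The order of levels over the groups was the same without scaling except that tamoxifen passed estradiol in TNS4.

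GJD3 and CCR7 are limited by depth, and raloxifene library 4 is the shallowest. With 2 libraries a group, a gene that misses the threshold is not shown to be unchanged.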
